A study of Mus musculus with 12 samples.

Results

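The hypoxia response was measured in each of 6 lines of primary mouse embryonic fibroblasts, and the responses of 3 lines with deletions of the CH1 domain of CBP and p300 (triCH1 lines) were compared with those of 3 lines without them (control lines). All 12 of the 12 arrays entered the comparison, since every line had 1 array from normoxia (21% O2) and 1 from hypoxia (0.1% O2), both after 6 h. The response of a line is its log2 signal in hypoxia minus its log2 signal in normoxia, and the quantity described here is the difference in response, triCH1 minus control, not the level of a transcript. A negative value means a lower response in the triCH1 lines.

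All fibroblasts came from embryos at e14.5, received an adenovirus carrying Cre recombinase at passage 3, and were then expanded at least 100-fold. The control line flox1 carried 1 floxed and 1 wild-type allele of Crebbp, the gene for CBP. The control lines flox2_1 and flox2_2 carried 1 floxed and 1 wild-type allele of Ep300, the gene for p300. In the triCH1 lines, 3 of the 4 alleles of both genes lacked the CH1 domain and the remaining allele was floxed. The floxed allele was that of Crebbp in triCH1flox1, which was homozygous for the deletion in Ep300, and that of Ep300 in triCH1flox2_1 and triCH1flox2_2, which were homozygous for the deletion in Crebbp. Cre was thus part of the design in all 6 lines. How far the CH1 deletions extend and how complete the recombination was are not given in the sources used here, and whether some triCH1 cells kept an intact allele was not tested. During treatment the cells were kept at 37 °C with 5% CO2 in medium with 10% serum. The labels do not say whether the lines came from different embryos, so that the p-values speak for these lines alone. The p-values and SEs of limma rest on the spread between these lines and, through its variance model, on that of other probe sets. In addition, 3 lines per type limit the precision of every value.

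CBP and p300 are related histone acetyltransferases that serve as coactivators for many transcription factors. Under low oxygen the α subunits of the hypoxia-inducible factors (HIF) escape hydroxylation by prolyl hydroxylases and degradation through the von Hippel-Lindau protein, pair with ARNT, and bind DNA at a short core motif. The C-terminal transactivation domain of HIF-1α recruits CBP and p300 through their CH1 (TAZ1) domain, and the comparison asks how much of the response depends on that domain.

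Median signals of 57.2 to 76.1 (scaled units of the authors) were found, and the signals of the 3′ and 5′ probe sets of Gapdh had ratios of 0.737 to 0.812. Of the markers examined, those of fibroblasts were present (10 of 10 with a mean signal of at least 100) those of endothelium were not (0 of 4), and those of neural cells (4 of 5) and macrophages (3 of 5) were in part. The summed signals of the neural markers (1817 to 3311 in control and 2136 to 2783 in triCH1 lines) and of the macrophage markers (405 to 607 and 427 to 617) overlapped between the types. For the targeted genes the difference in response was −0.04 ± 0.24 (SE from limma) for Crebbp (1435224_at) and 0.11 ± 0.39 for Ep300 (1434765_at), the latter from −0.42 to 0.49 when 1 line was left out. The probe sets cannot tell alleles with and without CH1 apart. The RNA was from whole cultures, in which fewer cells of a type and less RNA per cell cannot be told apart.

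The responses of hypoxia-induced genes were mostly lower in the triCH1 lines, by an amount that varied from gene to gene. Of the 100 genes whose mean response over the 6 lines was at least 1 log2 unit (2-fold), 78 had a negative difference, against 50.5% of all 10059 genes tested, and the median difference was −0.23. Among the bright genes with the most negative differences were Egln3, Pfkfb3, Ndrg1 and Hilpda, whose hypoxic fold in the triCH1 lines was 38.0, 48.9, 57.4 and 58.8% of that in the control lines. Bnip3, the gene with the highest mean response, had 95.3% of the control fold. The mean over the 6 lines gives both line types the same weight, and the difference had no part in the choice of the 100 genes.

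No single difference passed the test across all probe sets. Of 18903 probe sets tested with limma, with the line as a block, 0 were called lower (0%) and 0 higher (0%) in the triCH1 lines at a Benjamini-Hochberg adjusted p under 0.05. The adjusted p was 0.341 for Egln3 and at least 0.9998 for all others. At an unadjusted p under 0.05 the same fit gave 140 lower (0.741%) and 162 higher (0.857%). Together these 302 are a smaller share than the 0.05 that evenly spread p-values would give. The p-values of this fit thus ran high, and the lack of calls does not show that no response differed. By contrast, the mean response over the 6 lines was called for 455 probe sets higher in hypoxia (2.41%) and for 238 lower (1.26%). As an alternative, the p-values were adjusted over the 176 probe sets with a mean response of at least 1 log2 unit in size alone. Then 9 were called lower (5.11%) and 0 higher (0%): Egln3 (adjusted p = 0.00317 by limma), Pfkfb3, 5 probe sets of Ndrg1, Pgf and Pgk1 (the other 8 at 0.0498). These 8 lie just under the threshold, and without the line as a block 0 were called. Each omission of a line also changed the set adjusted over. Leaving out flox2_1, flox1 or triCH1flox2_2 gave 1 lower call, out of 200, 182 and 187 probe sets. Leaving out triCH1flox2_1 gave 2 of 193, and triCH1flox1 gave 6 of 180. Leaving out flox2_2 gave 17 lower and 2 higher calls out of 177. For single genes an exact permutation test of 3 against 3 lines has 20 assignments and cannot give a two-sided p under 0.1.

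**Figure D1:**
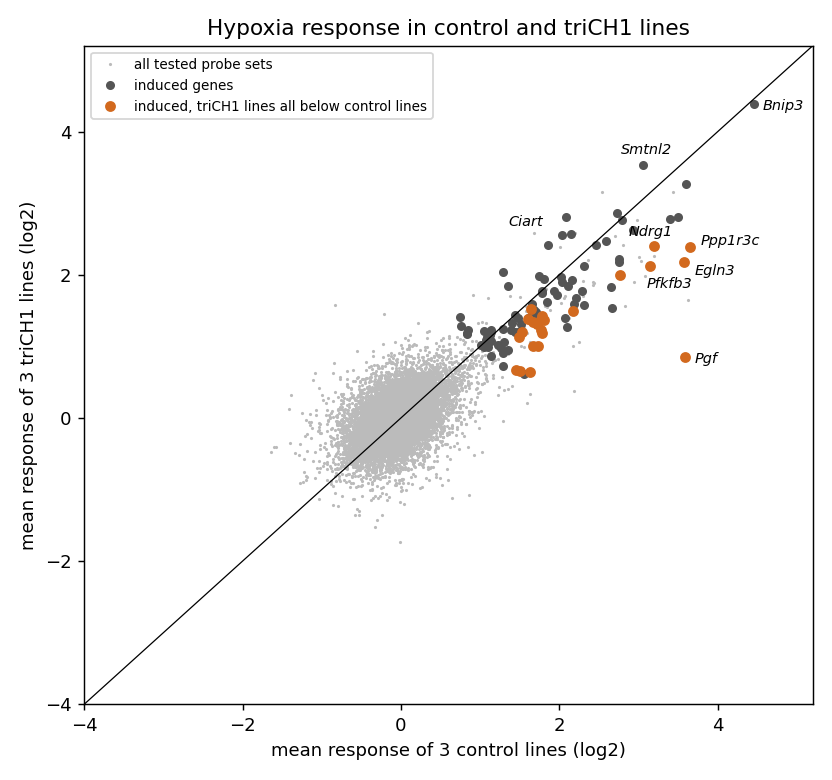
Each point gives the mean hypoxia response (log2) of the 3 control lines on the horizontal axis and of the 3 triCH1 lines on the vertical axis, for all 18903 probe sets tested (small grey points) and the 100 induced genes (large points), with a diagonal of equal responses. The 23 induced genes whose 3 triCH1 responses all lay below the 3 control responses (orange) lie below the diagonal, with Egln3, Ppp1r3c and Pgf farthest from it, while Bnip3 lies near it.

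The oxygen-sensing enzymes and HIF subunits came first in the order of the pathway. Egln3 (1418649_at) encodes the prolyl hydroxylase PHD3, which marks HIF α subunits for destruction and is itself a HIF target. Its signal in the control lines flox2_1, flox1 and flox2_2 was 479.7, 446 and 519 in normoxia and 6799, 5388 and 5747 in hypoxia. In triCH1flox2_1, triCH1flox1 and triCH1flox2_2 it was 185, 401 and 284 in normoxia and 1028, 1780.1 and 1265 in hypoxia. The hypoxic signals of the types thus did not overlap, and neither did the normoxic ones. The response was 3.58 ± 0.18 (SD, n = 3 lines) in control and 2.18 ± 0.15 in triCH1 lines, 11.9-fold against 4.52-fold. The difference was −1.40 ± 0.22 (SE; 95% interval −1.87 to −0.93; unadjusted p = 1.8e-05 by limma), and the responses, 3.42 to 3.77 against 2.08 to 2.36, did not overlap. The other tested probe set of Egln3 (1418648_at) gave −1.26 ± 0.38. With respect to the floxed gene, the difference was −1.44 between triCH1flox1 and flox1 and −1.38 between the triCH1flox2 and flox2 lines. Over 19 alternative settings, in which probe sets, lines or scaling were changed, the difference stayed between −1.49 and −1.30, with adjusted p-values of 0.0562 to 0.999994 over all probe sets.

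The promoter of Egln3 (RefSeq, GRCm38.p6, chr12:54203825-54204124, minus strand, 250 bases before to 50 after the start) is shown with those of Pfkfb3 (chr2:11502041-11502340, minus), Adm (chr7:110627407-110627706, plus), Bnip3 (chr7:138909457-138909756, minus) and Pdk1 (chr2:71872974-71873273, plus). Egln3 and Pfkfb3 had among the most negative differences of the genes of the pathway, and Bnip3 and Pdk1 the highest mean responses. Adm was among the genes named singly, not by the rank of its difference. Capitals mark ACGTG and GCGTG, the letters of the HIF core motif, on either strand, so that CACGT and CACGC are the same motifs on the opposite strand, and CACGTG holds ACGTG on both strands. The windows of Egln3, Pfkfb3 and Bnip3 hold ACGTG and those of Adm and Pdk1 hold GCGTG alone. Pfkfb3 and Pdk1 have 2 starts in the table, of which the window with more matches is shown. A match is not evidence of binding.
Egln3: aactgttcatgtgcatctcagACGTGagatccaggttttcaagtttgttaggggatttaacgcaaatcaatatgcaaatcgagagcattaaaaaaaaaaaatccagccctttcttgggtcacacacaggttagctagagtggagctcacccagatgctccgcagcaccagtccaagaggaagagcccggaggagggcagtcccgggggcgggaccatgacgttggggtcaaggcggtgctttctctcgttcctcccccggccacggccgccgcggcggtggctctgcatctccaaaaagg
Pfkfb3: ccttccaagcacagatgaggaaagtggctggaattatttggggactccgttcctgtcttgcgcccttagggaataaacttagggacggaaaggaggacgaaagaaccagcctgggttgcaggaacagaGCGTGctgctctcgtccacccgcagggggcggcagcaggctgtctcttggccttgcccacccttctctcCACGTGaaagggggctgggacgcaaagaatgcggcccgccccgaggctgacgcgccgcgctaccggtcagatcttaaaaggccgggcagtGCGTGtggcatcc
Adm: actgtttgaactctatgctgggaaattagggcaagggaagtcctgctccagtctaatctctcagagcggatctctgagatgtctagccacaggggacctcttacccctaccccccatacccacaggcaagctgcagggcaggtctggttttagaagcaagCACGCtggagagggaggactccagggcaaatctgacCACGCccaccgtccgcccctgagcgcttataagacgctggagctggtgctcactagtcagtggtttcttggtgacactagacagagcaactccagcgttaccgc
Bnip3: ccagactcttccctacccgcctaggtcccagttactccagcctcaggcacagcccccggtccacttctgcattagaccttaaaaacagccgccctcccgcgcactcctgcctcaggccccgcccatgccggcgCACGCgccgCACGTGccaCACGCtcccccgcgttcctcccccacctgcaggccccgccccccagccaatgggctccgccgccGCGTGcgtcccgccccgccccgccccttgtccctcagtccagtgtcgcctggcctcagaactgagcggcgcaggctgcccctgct
Pdk1: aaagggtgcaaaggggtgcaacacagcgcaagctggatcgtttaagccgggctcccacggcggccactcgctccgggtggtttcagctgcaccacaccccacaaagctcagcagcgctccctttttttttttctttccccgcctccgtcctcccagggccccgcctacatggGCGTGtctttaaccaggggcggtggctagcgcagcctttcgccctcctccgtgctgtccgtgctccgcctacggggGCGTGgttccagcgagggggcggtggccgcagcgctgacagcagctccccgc

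Egln1, which encodes the main prolyl hydroxylase PHD2, gave no single answer. Its brighter probe set (1423785_at) responded by 2.02 ± 0.29 (SD, n = 3) in control and 1.97 ± 0.09 in triCH1 lines, a difference of −0.05 ± 0.20 (SE). The other (1451110_at) responded by 2.79 ± 0.32 and 2.03 ± 0.20, a difference of −0.76 ± 0.23. The response of Vhl (1434708_at), the substrate receptor of the ubiquitin ligase, differed by −0.20 ± 0.24. Hif1a (1427418_a_at), the α subunit itself, had responses of −0.57, −0.32 and 0.33 in control lines and 0.04, 0.61 and 0.39 in triCH1 lines, in the order flox2_1, flox1 and flox2_2 and their triCH1 counterparts. The difference for Hif1a was 0.53 ± 0.23 (SE), the other 2 probe sets gave 0.40 ± 0.33 and 0.51 ± 0.30, and the responses of the line types overlapped for 1427418_a_at. Of the 11 measured genes of this list, 7 had a negative difference (median −0.08), and 0 passed the test in either direction. The triCH1 responses lay all below the control responses for 1 gene and all above for 1 (against 2.77 and 2.35% of all genes).

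**Figure D2:**
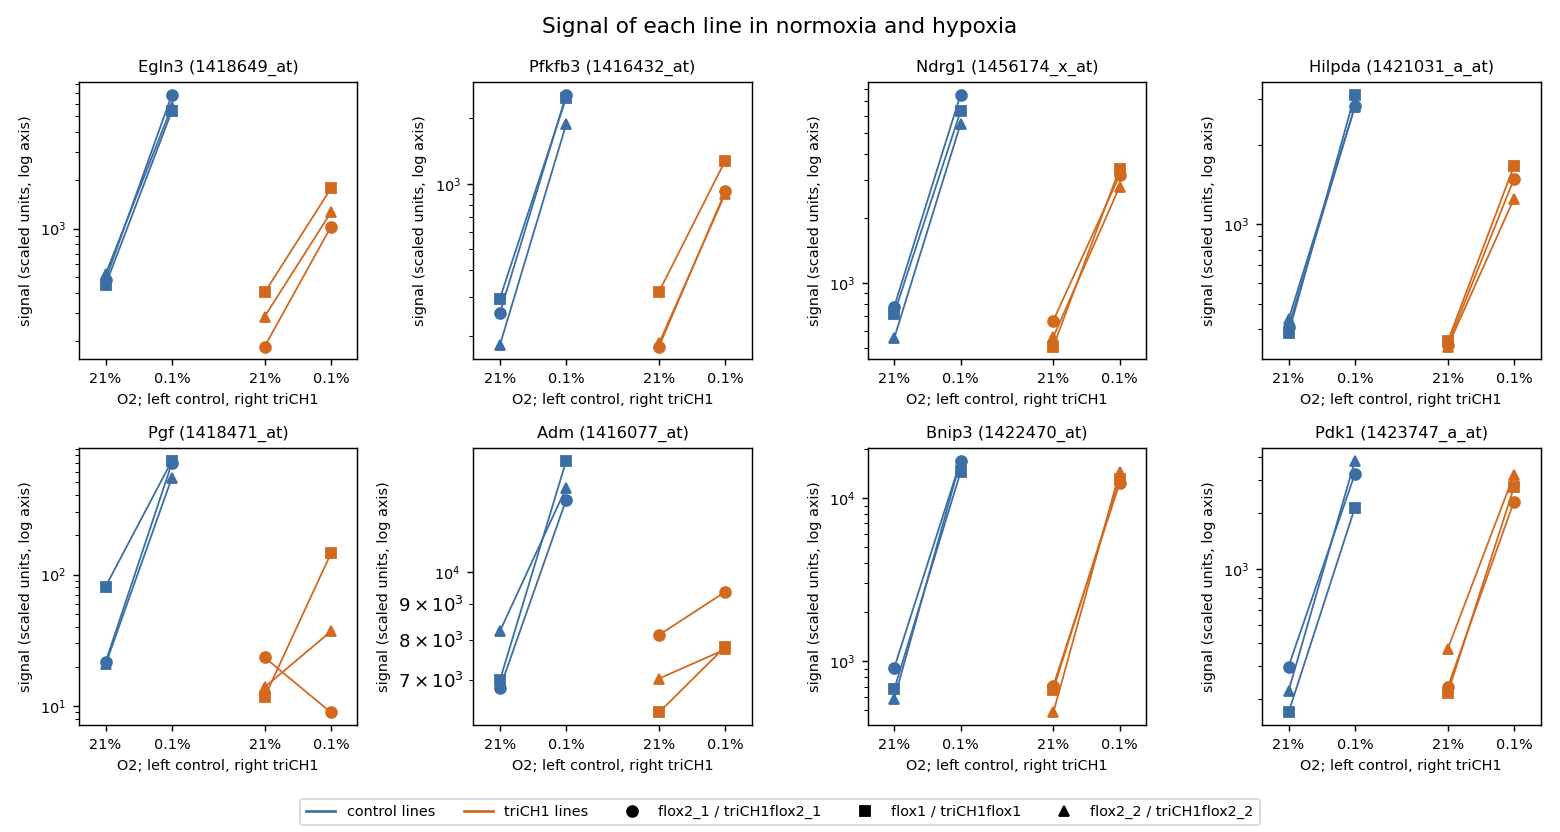
Signals (authors' scaled units, log axis) of 8 genes in normoxia (21% O2) and hypoxia (0.1% O2), with 1 line joining the arrays of each cell line, control lines in blue on the left and triCH1 lines in orange on the right of each panel. For Egln3, Pfkfb3, Ndrg1 and Hilpda every triCH1 line has a flatter slope than every control line, for Adm the triCH1 lines are nearly level, and for Bnip3 and Pdk1 the slopes overlap.

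With the brightest probe set for each gene, the genes of glucose uptake and glycolysis showed mostly small negative differences, with the largest in Pfkfb3. Pfkfb3 (1416432_at) encodes the enzyme that makes the activator of phosphofructokinase. Its signals in flox2_1, flox1 and flox2_2 were 254, 297 and 181 in normoxia and 2559.6, 2483 and 1875 in hypoxia. In the triCH1 lines of like name they were 179, 319 and 185 in normoxia and 922, 1279 and 902 in hypoxia, so that the types overlapped in normoxia and not in hypoxia. The response of Pfkfb3 was 3.15 ± 0.15 against 2.12 ± 0.16 (SD, n = 3), a difference of −1.03 ± 0.23 (SE; 95% interval −1.53 to −0.53; unadjusted p = 0.00059 by limma). A second probe set (1456676_a_at) gave −1.19 ± 0.34, and the differences within the floxed Crebbp and the floxed Ep300 lines were −1.04 and −1.03. Of the 17 measured genes of the list, 16 had a negative difference (median −0.16), 4 had triCH1 responses all below the control responses (against 2.77% of all genes), and 0 passed the test in either direction.

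The 4 genes without overlap were Pfkfb3, the hexokinase gene Hk2, the aldolase gene Aldoc and the glucose transporter gene Slc2a1. For Slc2a1 (1434773_a_at) the response was 1.67 ± 0.07 against 1.34 ± 0.13 (SD, n = 3), a difference of −0.32 ± 0.14 (SE). Other induced probe sets of Slc2a1 gave larger differences of −0.59 ± 0.20 and −0.42 ± 0.16, both without overlap. Hk2 (1422612_at) differed by −0.44 ± 0.20 and Aldoc (1451461_a_at) by −0.11 ± 0.40, and the value for Aldoc was 0.063 with a pseudocount of 100. The responses of Aldoc had an SD of 0.04 in either type, and its SE was raised by limma's variance model. The second glucose transporter Slc2a3 (1437052_s_at) differed by −0.57 ± 0.33, and the lactate exporter Slc16a3 (1449005_at) by −0.12 ± 0.30. The phosphofructokinase gene Pfkp (1416069_at) differed by −0.22 ± 0.20 and the lactate dehydrogenase gene Ldha (1419737_a_at) by −0.19 ± 0.15. Pgk1, the gene for phosphoglycerate kinase, depended on the probe set: 1439435_x_at had responses of 1.55 ± 0.07 and 0.99 ± 0.18 (SD) and differed by −0.56 ± 0.15, while 1417864_at differed by −0.06 ± 0.14. Probe sets with an x in their suffix can also detect related sequences. In normoxia the signals of 1439435_x_at were 6525 to 7882 in control and 8338 to 10053 in triCH1 lines. In hypoxia they were 20009.8 to 22758 and 17293 to 20388. Outside the list, the phosphoglucomutase gene Pgm1 (1451149_at) differed by −0.40 ± 0.21.

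Genes for mitochondria and glycogen under low oxygen held both responses close to those of the control lines and some of the most negative differences. Bnip3 (1422470_at), which encodes a mitophagy receptor, had signals of 910.4, 672 and 586 in normoxia and 16863, 14392 and 16903 in hypoxia in flox2_1, flox1 and flox2_2. In triCH1flox2_1, triCH1flox1 and triCH1flox2_2 they were 709, 670.4 and 486 in normoxia and 12324, 13019 and 14427 in hypoxia. The responses of Bnip3 overlapped, with 4.46 ± 0.32 against 4.39 ± 0.40 (SD, n = 3) and a difference of −0.07 ± 0.23 (SE; 95% interval −0.57 to 0.43). Its sign turned under quantile normalization (0.025). Pdk1 (1423747_a_at), whose kinase keeps pyruvate out of the citrate cycle, had responses of 3.34, 3.49 and 3.98 in control and 3.20, 3.55 and 3.04 in triCH1 lines, a difference of −0.34 ± 0.25. The other 2 probe sets of Pdk1 gave −0.28 ± 0.24 and −0.15 ± 0.27. The adenylate kinase gene Ak4 (1450387_s_at) differed by −0.30 ± 0.23, with overlap. Other induced probe sets of Ak4 gave −0.77 ± 0.36, without overlap, and −0.39 ± 0.28, with overlap.

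The glycogen-targeting subunits of protein phosphatase 1 differed from each other. Ppp1r3c (1433691_at) had normoxic signals of 10.6, 26.2 and 13.3 in control and 27.3, 2.7 and 9.9 in triCH1 lines, and hypoxic signals of 536, 437 and 346 against 227, 93.0 and 144. Its hypoxic signals and its responses did not overlap, and the difference was −1.26 ± 0.50 (SE), with a size that rests on the pseudocount of 20 because the normoxic signals were so low. Ppp1r3b (1436590_at) differed by −0.02 ± 0.34, and this sign turned with a pseudocount of 1 (0.16) and in the floxed Ep300 lines alone (0.10). The glycogen synthase gene Gys1 (1416737_at) differed by −0.17 ± 0.21. Ndufa4l2 (1434905_at), a mitochondrial gene, had responses from 1.69 to 4.44 in control and from 0.41 to 2.43 in triCH1 lines, and Mgarp (1420774_a_at) from 1.73 to 2.73 and from 1.14 to 3.89. The spread of these 2 genes within a type was as large as their differences of −1.13 ± 0.68 and 0.73 ± 0.59. Of 16 measured genes, 13 had a negative difference (median −0.15), 3 had triCH1 responses all below the control responses (against 2.77% of all genes), and 0 passed the test.

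Secreted and vascular HIF targets had a median difference of −0.23, the most negative of the HIF target lists, with 14 of 17 measured genes negative, 4 without overlap below and 1 above (against 2.77 and 2.35% of all genes), and 0 passing the test. Adm encodes the vasodilator peptide adrenomedullin, and its probe set 1416077_at was bright in all samples. The signals in flox2_1, flox1 and flox2_2 were 6814, 6996 and 8224 in normoxia and 12683, 14417 and 13188 in hypoxia. In triCH1flox2_1, triCH1flox1 and triCH1flox2_2 they were 8125, 6296 and 7038 in normoxia and 9367, 7819 and 7750.3 in hypoxia. The normoxic signals overlapped and the hypoxic signals did not. The response of Adm was 0.87 ± 0.18 (SD, n = 3), or 1.83-fold, in control lines and 0.22 ± 0.09, or 1.16-fold, in triCH1 lines. The difference was −0.65 ± 0.16 (SE; 95% interval −0.99 to −0.32; unadjusted p = 0.00099 by limma), the other probe set (1447839_x_at) gave −0.49 ± 0.15, and the floxed Crebbp and floxed Ep300 pairs gave −0.73 and −0.62. With a mean response under 1 log2 unit, Adm is not among the 100 induced genes.

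Pgf (1418471_at), a VEGF family ligand, had the largest difference of the induced genes, on low signals. They were 21.6, 80.9 and 20.8 in normoxia and 698, 728 and 541 in hypoxia in the control lines. In triCH1flox2_1, triCH1flox1 and triCH1flox2_2 they were 23.5, 11.8 and 14.0 in normoxia and 9.0, 145 and 37.1 in hypoxia. The hypoxic signals of the types were far apart, and within the triCH1 type triCH1flox1 stood above the other 2 lines. The difference for Pgf was −2.75 ± 0.69 (SE), with −0.52 between triCH1flox1 and flox1 and −3.86 in the floxed Ep300 lines. Vegfa (1420909_at), the main angiogenic factor, responded by 0.94 ± 0.24 against 0.81 ± 0.25 (SD), a difference of −0.13 ± 0.22. Its signals spanned 1292 to 2039 in normoxia and 3022 to 3499 in hypoxia in control lines, and 647 to 1791 and 1377 to 2645 in triCH1 lines. In each pair of like-named lines the triCH1 line had the lower Vegfa signal in both conditions.

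Stc2 (1449484_at), which encodes the glycoprotein stanniocalcin 2, responded by 3.25 to 3.65 in control lines and by 2.37, 3.39 and 2.66 in triCH1flox2_1, triCH1flox1 and triCH1flox2_2, so that triCH1flox1 lay among the controls. The difference was −0.69 ± 0.29 (SE), with 0.14 in the floxed Crebbp pair and −1.10 in the floxed Ep300 lines. The other induced probe sets of Stc2 gave −0.72 ± 0.27 and −0.82 ± 0.43, with −0.62 and −1.19 in the floxed Crebbp pair. In both of them triCH1flox1 lay below all control lines, so that its control-like response was seen with 1449484_at alone. The carbonic anhydrase gene Car9 (1427013_at) differed by −0.59 ± 0.53, with triCH1flox1 lowest at 0.64 and triCH1flox2_1 at 2.24. The endoplasmic oxidase gene Ero1a (1419029_at) differed by −0.41 ± 0.18, without overlap. The other induced probe sets of Ero1a gave −0.53 ± 0.25 and −0.57 ± 0.27, both with overlap. Their differences in the floxed Crebbp pair were 0.03 and 0.01. The gene for the ligand apelin, Apln (1451038_at), differed by −0.84 ± 0.25, without overlap. The chemokine scavenger receptor gene Ackr3 (1417625_s_at) differed by −0.53 ± 0.25.

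Among stress, mTOR and transcription-factor targets, 16 of 23 measured genes had a negative difference (median −0.19), 3 had triCH1 responses all below and 2 all above the control responses (against 2.77 and 2.35% of all genes), and 0 passed the test. Ndrg1 (1456174_x_at), a gene induced by many stresses, had signals of 776, 720.3 and 554 in normoxia and 7499.9, 6289 and 5492 in hypoxia in flox2_1, flox1 and flox2_2. In the triCH1 lines of like name they were 669, 507 and 562 in normoxia and 3173, 3407 and 2808 in hypoxia. The normoxic signals overlapped, and the hypoxic signals did not. The response was 3.20 ± 0.09 against 2.40 ± 0.27 (SD, n = 3), a difference of −0.80 ± 0.21 (SE; unadjusted p = 0.0020 by limma), and the other 4 probe sets of Ndrg1 gave −1.10, −1.03, −0.93 and −0.83. Probe sets of 1 gene share its RNA and are not replicates.

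Hilpda (1421031_a_at) encodes a lipid droplet protein that restrains lipolysis. Its signals were 408, 386 and 435 in normoxia and 2807, 3104 and 2791 in hypoxia in control lines, and 348, 359 and 343 in normoxia and 1489, 1668 and 1251 in hypoxia in triCH1 lines. The difference was −0.77 ± 0.22 (SE), 6.80-fold against 4.00-fold, and neither condition showed overlap. The cyclin gene Ccng2 (1416488_at) differed by −0.19 ± 0.20, with overlap. Another induced probe set of Ccng2 gave −0.38 ± 0.22, without overlap. Ddit4 (1428306_at), which encodes the mTOR brake REDD1, differed by −0.24 ± 0.20, and the repressor gene Bhlhe40 (1418025_at) by −0.27 ± 0.20. Mxi1 (1450376_at), which encodes an antagonist of MYC, differed by −0.54 ± 0.30. Ankrd37 (1436538_at) responded by 3.33 to 3.46 in control lines and by 2.47, 2.36 and 3.52 in triCH1 lines, where triCH1flox2_2 lay above all controls.

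A few strongly induced genes had positive differences. Ciart (1435188_at), the gene of a circadian repressor, was the 1 induced gene whose triCH1 responses all lay above the control responses, with 2.31, 2.51 and 2.84 against 1.77, 2.13 and 2.21. Its difference was 0.52 ± 0.30 (SE; 95% interval −0.14 to 1.17), and its hypoxic signals were 503 to 514 in control and 479 to 705 in triCH1 lines. Vldlr (1434465_x_at), a lipoprotein receptor gene, differed by 0.41 ± 0.25, Ndrg2 (1448154_at) by 0.56 ± 0.34 and the nuclear receptor gene Rora (1424034_at) by 0.49 ± 0.36, each with overlap. Other induced probe sets had mixed signs, with 0.37, 0.62, −0.21 and −0.14 for Vldlr and 0.58, 0.39, −0.26 and −0.04 for Rora. For Smtnl2 (1455794_at) the difference was 0.48 ± 0.53, and it was −0.017 in the floxed Ep300 lines alone. The MHC class II gene H2-Ab1 (1450648_s_at) had low responses in both lines with a floxed Crebbp allele, 1.67 in flox1 and 1.22 in triCH1flox1, and responses of 3.17 to 3.74 in the 4 lines with a floxed Ep300 allele.

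**Figure D3:**
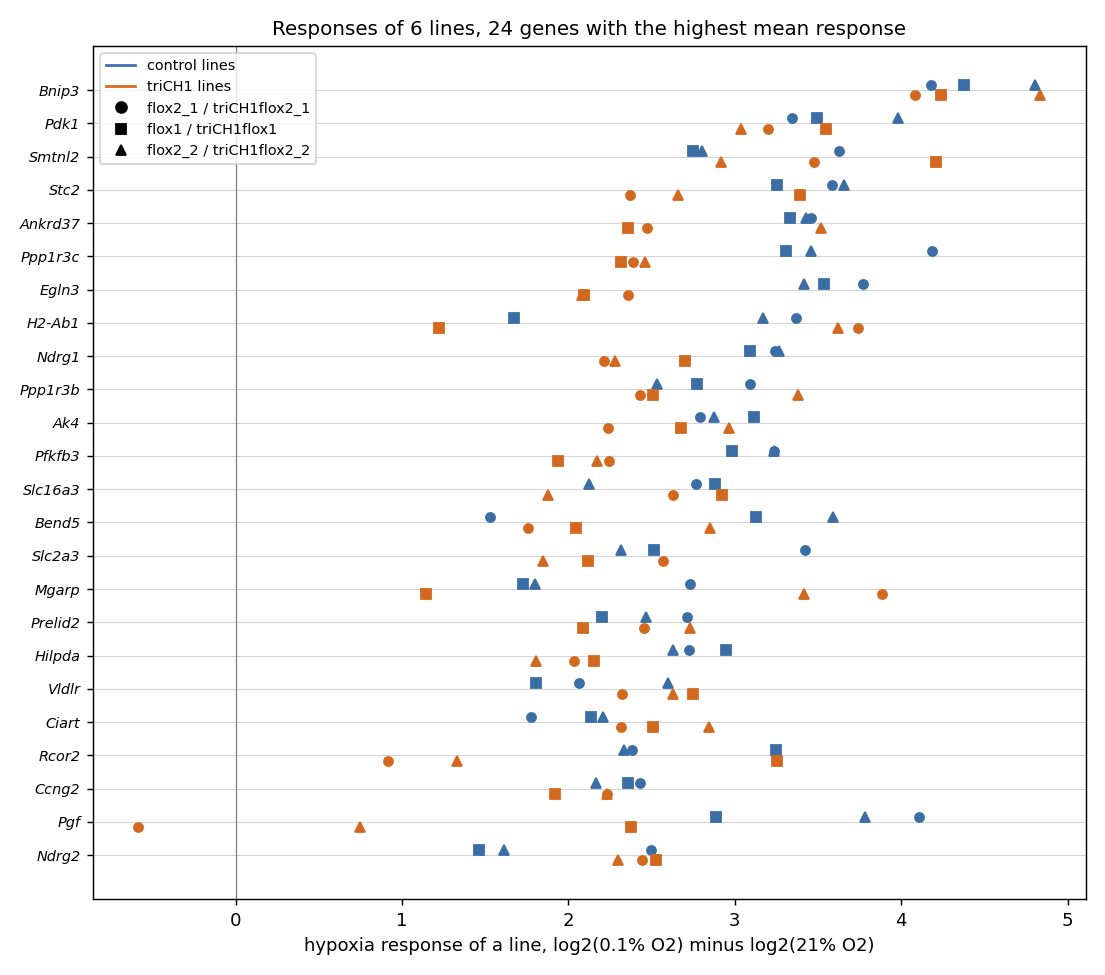
Hypoxia response (log2) of each of the 6 lines for the 24 genes with the highest mean response, in that order from the top, with control lines in blue, triCH1 lines in orange and 1 symbol for each pair of like-named lines. The orange symbols of Egln3, Ppp1r3c, Ndrg1, Pfkfb3, Hilpda and Pgf all lie left of the blue ones, those of Ciart all lie right, and those of Bnip3 and Pdk1 overlap.

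Over the 100 induced genes, represented by 1 probe set each, 23 had triCH1 responses all below the control responses (23%, against 2.77% of all 10059 genes) and 1 all above (against 2.35%). Without flox2_2 the count below was 39, but fewer lines then have to be apart, and this count cannot be set against the 2.77%. At an unadjusted p under 0.05 in limma's test, 17 were lower (against 0.686% of all genes) and 0 higher (against 0.676%). In size, 28 differences were −0.5 or lower, 66 lay between −0.5 and 0.5, and 6 were 0.5 or higher. In addition to the genes described, the 23 included Nampt, whose enzyme makes a NAD precursor (−0.68), the corepressor gene Sap30 (−0.35), the metallothionein gene Mt1 (−0.53), the mitochondrial gene Higd1a (−0.22) and the collagen prolyl hydroxylase gene P4ha2 (−0.36). The rest were Reep1 (−0.60), Zfp395 (−0.73), Tbl2 (−0.34), Arrb1 (−0.66), Ifi202b (−0.99) and the polycomb gene Pcgf5 (−0.78). Other induced probe sets of Nampt (−0.29), Pcgf5 (−0.38), Tbl2 (−0.41 and −0.25) and Higd1a (−0.16 and −0.38) were negative too, but with overlap. Names given for lack of overlap alone were chosen after their values were seen.

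The share of negative differences was higher among bright than among dim genes, and the median difference was most negative in the most strongly induced genes. Of 51 induced genes with a mean signal of at least 500, 46 had a negative difference (median −0.30), 16 had triCH1 responses all below and 0 all above the control responses. Of the 49 dimmer ones, 32 were negative (median −0.07), 7 were all below and 1, Ciart, was all above. Over all genes, bright and dim together, the shares were 2.77% all below and 2.35% all above. The median SD of the control responses was 0.21 in the brighter and 0.49 in the dimmer induced genes. The part of this spread in the contrast was not tested. By mean response, 29 of 41 genes between 1 and 1.5 log2 units were negative (median −0.20), 28 of 32 between 1.5 and 2 (median −0.23), and 21 of 27 at 2 or more (median −0.34). Of 30 induced genes with more than 1 induced probe set, 21 had negative differences in all of them, 2 had positive differences in all and 7 were mixed.

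Line by line, the median response over the 100 genes was 1.78 in flox2_1, 1.66 in flox1 and 1.61 in flox2_2, and 1.51 in triCH1flox2_1, 1.55 in triCH1flox1 and 1.33 in triCH1flox2_2. The types did not overlap, with a mean of 1.69 ± 0.09 (SD, n = 3) for control and 1.46 ± 0.12 for triCH1 lines, and the gap between the lowest control and the highest triCH1 line was smaller than the spread within either type. The lowest response of the 6 was in a triCH1 line for 70 of the 100 genes, and in triCH1flox2_2 for 32. The highest response was in a control line for 70, and in flox2_1 for 33.

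**Figure D4:**
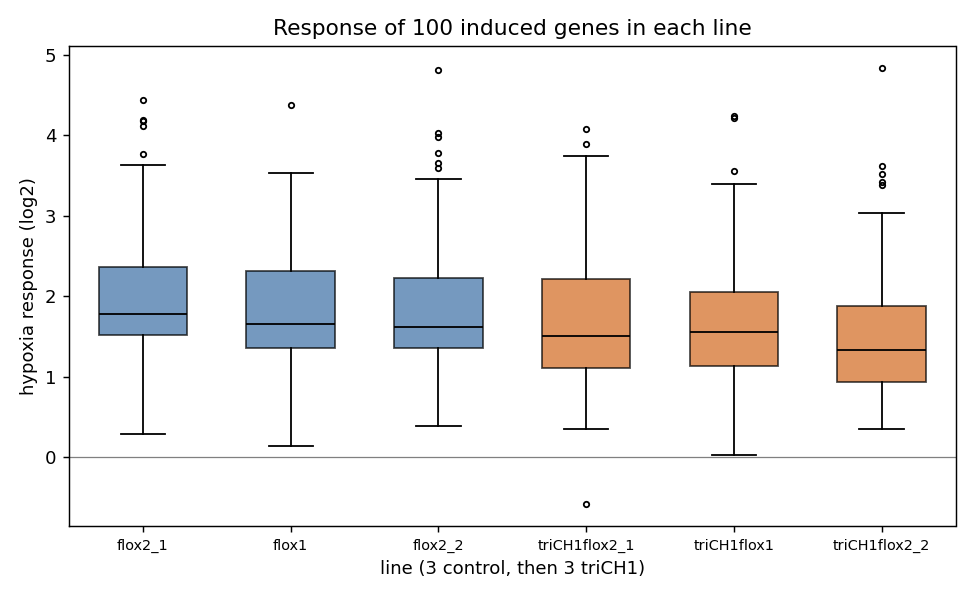
Hypoxia response (log2) of the 100 induced genes in each line, with the median as a line, the box from the lower to the upper quartile, whiskers to the farthest value within 1.5 box lengths and circles beyond. The 3 control lines (blue) have medians of 1.61 to 1.78 and the 3 triCH1 lines (orange) of 1.33 to 1.55, with wide overlap of the boxes.

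Each floxed gene gave its own comparison, and these share no array. Between triCH1flox1 and flox1, with the floxed allele in Crebbp, 67 of the 100 genes had a negative difference (median −0.21). Between the triCH1flox2 and flox2 lines, with the floxed allele in Ep300, 72 were negative (median −0.24). Both were negative for 48 genes (48%, against 22.9% of all genes) and both positive for 9 (against 22.6%). Among the 51 brighter induced genes both were negative for 35, and among the 49 dimmer ones for 13. Pearson's r of the 2 differences was 0.057 across all 100 genes, 0.39 across the 51 brighter and −0.040 across the 49 dimmer ones, a description in which genes are not independent. Lines of the same genotype differed by amounts up to the same size. The median difference was 0.21 between flox2_1 and flox2_2 and 0.12 between triCH1flox2_1 and triCH1flox2_2.

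**Figure D5:**
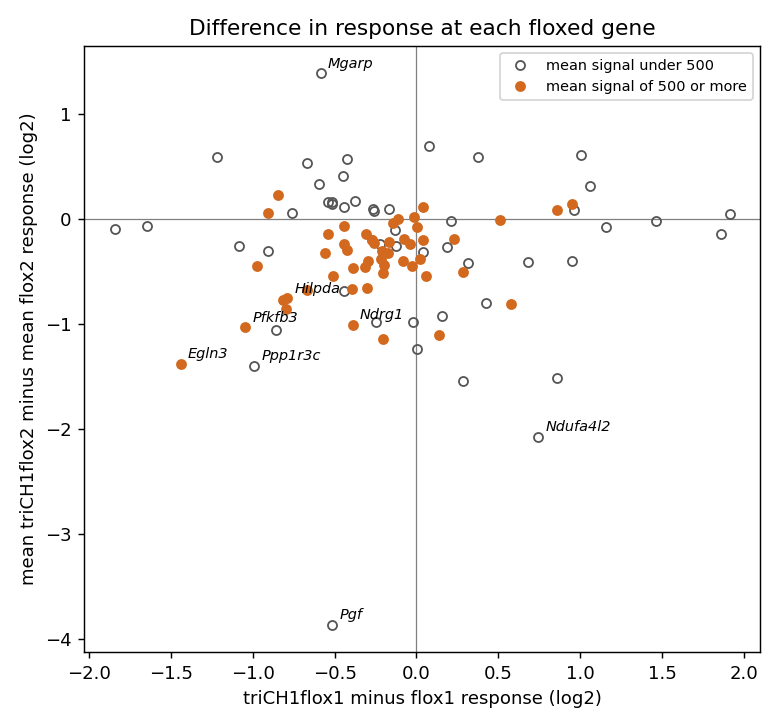
For each of the 100 induced genes, the difference in response (log2) between triCH1flox1 and flox1 on the horizontal axis and between the means of the triCH1flox2 and flox2 lines on the vertical axis, filled where the mean signal was at least 500 and open where it was lower. The filled points are concentrated in the lower left quadrant, where 35 of 51 lie, and the dim genes Pgf, Ndufa4l2 and Mgarp lie far out along 1 axis.

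Outside the HIF pathway the functional lists had median differences from −0.13 (cell cycle) to 0.21 (interferon and STAT targets). Of the 236 genes with a mean response of −0.5 or lower, 105 had a negative difference (median 0.05), with 9 all below (3.81%, against 2.77% of all genes) and 13 all above (5.51%, against 2.35%). The chemokine gene Ccl7 (1421228_at) was one of the 13. Its signals were 1289, 1419 and 1100.5 in normoxia and 535, 613 and 488 in hypoxia in control lines, and 635, 421 and 567 in normoxia and 392, 304 and 461 in hypoxia in triCH1 lines. The normoxic signals of Ccl7 were lower in all triCH1 lines, and its difference was 0.72 ± 0.23 (SE). Of 12 measured NF-kB and chemokine genes 2 had a negative difference (median 0.10), and Ccl2 (1420380_at) differed by 0.30 ± 0.23. Spsb2 (1422106_a_at) responded by −1.19 ± 0.14 against −0.87 ± 0.08 (SD).

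Among 14 jumonji demethylases, oxygen-dependent enzymes of which some remove histone methyl groups, 9 were negative (median −0.11), and Kdm3a (1426810_at) differed by −0.25 ± 0.25 and Jmjd6 (1454109_a_at) by −0.17 ± 0.20. Among 11 collagen hydroxylases and lysyl oxidases 8 were negative (median −0.04), and the lysyl hydroxylase gene Plod2 (1416687_at) differed by 0.17 ± 0.29, or by −0.0066 in the floxed Ep300 lines alone. The unfolded protein response (10 of 21 negative, median 0.04), ribosome biogenesis (10 of 22, median 0.04), coactivators (9 of 13, median −0.04) and the cell cycle (13 of 16, median −0.13) had 0 genes that passed the test in either direction, as did every other list examined.

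Of markers of other cell types, those of epithelium had a summed signal that differed between the line types in hypoxia. The summed signal of the 7 epithelial markers, 3 of them with a mean of at least 100, was 6023 to 7722 in the control and 3720.3 to 3891 in the triCH1 arrays of hypoxia, and 1429 to 2389.7 against 1446 to 2622 in normoxia. Most of it was Krt19 (1417156_at), a simple keratin, which responded by 2.10 ± 0.38 against 1.27 ± 0.51 (SD, n = 3), a difference of −0.83 ± 0.27 (SE). The responses of Krt19 overlapped, and its difference was −0.20 in the floxed Crebbp pair and −1.14 in the floxed Ep300 lines. The 3 measured epithelial markers had a median mean response of −0.13, and the difference was negative in all 3. Krt18 (1448169_at) differed by −0.20 ± 0.34. The summed signal of 6 skeletal muscle markers, 2 of them with a mean of at least 100, was 12292 to 18429 in control and 8059 to 13989.9 in triCH1 lines in normoxia, and 15543 to 17631 and 10291 to 13783 in hypoxia. It was thus lower in triCH1 lines in hypoxia without overlap, with a median difference in response of −0.0013. The part of epithelial and muscle cells in the differences described was not tested.

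The motif ACGTG was found in at least 1 promoter window of 39 of the 75 induced genes with an entry (52.0%), against 30.8% of the tested genes and 21.8% of all genes with a promoter in the table. It was found in 15 of 20 induced genes without overlap below (75.0%) and in 24 of the other 55 (43.6%). With GCGTG counted as well the shares were 85.0 and 81.8%, against 70.1% of the tested genes. These shares describe windows of 300 bases and say nothing about sites outside them.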

How the data were processed

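Total RNA of 12 cultures was measured on 1-colour Mouse430_2 arrays, 1 per culture. The deposited values are linear intensity signals, 1 per probe set, for which the labels name the Statistical algorithm of Affymetrix and which the authors scaled to 500. This scaling was kept. Of 45101 probe sets, 64 controls were left out. Through the array's annotation, with symbols updated by RefSeq, 34945 had 1 symbol, 932 had several and 9160 had none listed. The brightest probe set on average stands for its gene.

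Values were log2(signal + 20), which understates changes of dim genes, for the 18903 probe sets with a mean signal of at least 100 over the 12 arrays. The model (limma 3.58.1, R 4.3.3; lmFit and eBayes with a variance trend) had each line as a block and a response for each line type, with 4 residual degrees of freedom. The block pairs the normoxia and hypoxia arrays of the same line, as the labels give it. The deviations of those arrays from their group means correlated at −0.02 to 0.58. Tests were two-sided with Benjamini-Hochberg adjustment, and a probe set was called at an adjusted p under 0.05. The fit was also run on simulated data, the outcome of which is not given here. Percentages of a fold are 2 to the power of the difference. None of the 66 pairs of arrays was identical (0 pairs).

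Genes were named as the 12 with the smallest p in each direction of the difference, and the 24 highest and 8 lowest mean responses. Added to them were up to 6 members of each of 22 lists with the largest mean response. Crebbp, Ep300, Hif1a, Epas1, Arnt, Adm, Bnip3, Egln3 and Vegfa were named singly. The values of Epas1 and Arnt are not given here. Ackr3, Apln, Bhlhe40, Ddit4, Gys1, Hk2, Ldha, Mxi1, Ndufa4l2, Pgm1, Rora, Slc2a1 and the further genes without overlap fall outside this rule and were chosen after their values were seen. The members, lists and tests were chosen with earlier results of these data known. Promoters are from RefSeq (GRCm38.p6), 1 window per gene printed. Alternatives were other pseudocounts, filters, scalings, variance models, blocks, probe set choices and the omission of each line.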

Additional observations from a re-analysis of the deposited data

Results flagged for a closer look

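The 95 probe sets followed, which included those with the smallest p of the difference, were searched for responses of opposite sign. In each of 11 genes among them, outside the induced set, the response had one sign in all 3 control lines and the other in all 3 triCH1 lines. The other probe sets were not searched, so that 11 is not a count over all genes. None of the 11 passed limma's test of the difference over all probe sets, so that these are sign patterns of 6 lines. Positive responses in control and negative ones in triCH1 lines were found for the ribosomal protein gene Rps10 (difference −0.88), the purine synthesis gene Gart (−1.19), the cyclic nucleotide phosphodiesterase gene Pde2a (−1.78), the replication gene Donson (−1.05), the mitochondrial peptidase subunit gene Pmpcb (−0.74) and the epithelial adhesion gene Epcam (−0.94). The opposite pattern was found for the muscle caveolin gene Cav3 (1.22), Ap5s1 (0.94), Tgfbrap1 (1.02), the capping enzyme gene Rngtt (1.35) and Nrp (1.16). The probe sets of Rps10, Pde2a, Pmpcb and Epcam carry an x in their suffix and can detect related sequences. Donson gave normoxic signals of 192 to 257 in control and 431 to 541 in triCH1 lines, and hypoxic ones of 297 to 366 and 242 to 381. Its normoxic signals were thus apart and its hypoxic ones overlapped. Pmpcb gave 1361 to 1856 and 1682 to 2265 in normoxia and 1697 to 2321 and 1400 to 1569 in hypoxia.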

How the results depend on the processing

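Under all alternatives that adjusted over all probe sets, 0 were called in either direction. With the p-values adjusted over the 176 responsive probe sets, 9 were called lower, and this number depended on the setting. The set of responsive probe sets changed as well, so that the counts are not all out of 176. Lower calls were 1 of 243 with a pseudocount of 1 and 1 of 344 without a filter. They were 1 of 176 without the variance trend or with the floxed gene as a covariate, and 1 of 188 in the floxed Ep300 lines alone. With lines of like name as a second replicate block 15 of 176 were called. A pseudocount of 100 gave 17 of 128 and median centring 17 of 178. Without the replicate block 0 of 176 were called. Leaving out 1 line gave 1 to 17 lower calls and 0 to 2 higher ones, out of sets of 177 to 200 probe sets. The lower calls were 1 without flox2_1, flox1 or triCH1flox2_2, 2 without triCH1flox2_1, 6 without triCH1flox1 and 17 without flox2_2. Lines of like name shared only a name, with correlations of their response deviations of 0.29, −0.10 and −0.05. The count of induced genes without overlap below, 23, was 8 with induction at 3-fold, where fewer genes count as induced. It was 37 in the floxed Ep300 lines alone and 26 to 39 without 1 line. In both of these settings fewer lines have to be apart, so that their counts cannot be set against 23 or against the share of 2.77% of all genes. The median difference of the induced genes lay between −0.30 and −0.13 over 22 alternatives, and between −0.30 and −0.20 without 1 line.

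For the 95 probe sets followed, 1758 of 1789 values kept their sign and 31, in 13 probe sets, did not. They were 0.063 for Aldoc with a pseudocount of 100, 0.025 for Bnip3 under quantile normalization, 0.16 for Ppp1r3b with a pseudocount of 1, and, in the floxed Ep300 lines alone, 0.10 for Ppp1r3b, −0.48 for Ep300, 0.032 for Pgk1 (1417864_at), −0.0066 for Plod2, 0.0040 for Prelid2 (1436194_at) and −0.017 for Smtnl2. Without 1 line in turn the values ranged from −0.29 to 0.11 for Bnip3, −0.24 to 0.16 for Crebbp, −0.15 to 0.12 for Egln1 (1423785_at), −0.42 to 0.49 for Ep300, −0.41 to 0.94 for H2-Ab1, −0.14 to 0.061 for Pgk1 (1417864_at), −0.12 to 0.57 for Plod2, −0.33 to 0.15 for Ppp1r3b, −0.19 to 0.13 for Prelid2, −0.35 to 0.18 for Slc16a3 and −0.26 to 0.0064 for Vegfa. The cause of these changes was not tested. Signals under 30, as all of Ppp1r3c and most of Pgf in normoxia, have no detection call here, so that the size of their responses is uncertain.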

Other observations

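Ampd3 (1422573_at), the gene of an AMP deaminase, had one of the smallest p-values for the difference although its mean response was under 1 log2 unit. Its signals in flox2_1, flox1 and flox2_2 were 915, 446 and 676 in normoxia and 2413, 1323 and 1530.2 in hypoxia, and those of triCH1flox2_1, triCH1flox1 and triCH1flox2_2 were 1411, 881 and 1184 and then 1817, 1433 and 1346. The hypoxic signals overlapped while the normoxic ones were higher in the triCH1 line of each like-named pair. The response was 2.56-fold in control and 1.33-fold in triCH1 lines, a difference of −0.94 ± 0.22 (SE) that limma did not call.

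At the other end, Fbxo36 (1419305_a_at), Dnajc11 (1433881_at), Prkab2 (1435875_at), which encodes a subunit of the AMP-activated kinase, Mtfr1l (1420059_at), Zfp689 (1453116_at) and H2aj (1424771_at) had positive differences of 1.30, 0.92, 0.83, 1.31, 1.71 and 0.62, none of them called. Prkab2 responded by 0.03 to 0.31 in control and by 0.71 to 1.23 in triCH1 lines, without overlap.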
